A study of Arabidopsis thaliana with 103 samples.

Results

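AIPP3 and PHD3 are nuclear proteins of *Arabidopsis thaliana*, and this account describes 983 regions of the genome where both were found by ChIP-seq and where neither PIAL2 nor MORC6 was found. The members were chosen by measured values, the positions of the called peaks: they are intervals of the AIPP3-FLAG replicate 1 peak list that overlapped, by at least 1 bp, an interval of AIPP3-FLAG replicate 2 and an interval of PHD3-FLAG, and no interval of PIAL2-Myc replicates 1 and 2 or of MORC6-Myc replicates 1 and 2. They were 983 of 4888 intervals on the 5 nuclear chromosomes in the AIPP3-FLAG replicate 1 list. A further 889 intervals met the first conditions but did overlap a PIAL2-Myc or MORC6-Myc interval, and these are used below as the regions to compare with.

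The series asked where the MOM1 complex and MORC proteins bind and what is transcribed without them. ChIP-seq was made from flower buds that had not opened. For the lists used by the rule, a tagged copy of the gene under its own promoter had been put into the matching mutant. Further MORC6-Myc lines, which the rule did not use, were in *morc6* or in Col-0. RNA-seq was made from seedlings of 12 days, with 3 libraries each of Col-0 wild type, of the T-DNA lines *aipp3-1* and *aipp3-2*, of *phd1-2* and *phd1-4*, of the *pial1/2* double mutant and of *morc6-3*. A second Col-0 set of the same age, the control for *nrpe1-11*, was used for a check of expression levels. The regions and the transcripts therefore came from different tissues. The *phd1* alleles are insertions of a single T made by CRISPR/Cas9, all 6 mutants shared the same 3 Col-0 libraries, and the labels do not say whether replicates were separate plantings, so p-values measure the spread between these libraries.

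AIPP3 carries a BAH domain, which binds the Polycomb mark H3K27me3, a histone mark of genes that are kept silent through development. PHD3 (also named AIPP2) carries a PHD finger, and with PHD2 and the RNA polymerase II phosphatase CPL2 it forms a complex with AIPP3. AIPP3 is also part of the MOM1 complex, together with MOM1, MOM2, PHD1 and the SUMO ligase-like proteins PIAL1 and PIAL2, and MORC6 is an ATPase that acts in gene silencing. The rule also separates the tags, since AIPP3 and PHD3 were pulled down with a FLAG antibody and PIAL2 and MORC6 with a Myc antibody. The PIAL2-Myc samples were crosslinked with EGS and then formaldehyde, and the samples of the other 3 proteins with formaldehyde alone. The AIPP3-FLAG and PHD3-FLAG reads were single-end, and the PIAL2-Myc and MORC6-Myc reads paired-end. The protein, the tag and these steps cannot be told apart by the rule alone.

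Several of the strongest member regions lay on genes for small nuclear RNAs (snRNAs), the RNA parts of the spliceosome. The region with the highest AIPP3-FLAG −log10 q, 79.3, was chr5:9493789-9494752 (TAIR10 coordinates), which covered the snRNA genes U1.9 and U4.8. Its fold enrichment over the control, as the peak caller wrote it, was 6.74 for AIPP3-FLAG replicate 1, 6.18 for replicate 2 and 8.13 for PHD3-FLAG. The region with the next highest value, chr1:4006485-4007491, covered U4.6 beside the end of *SRS*, a seryl-tRNA synthetase gene, with an AIPP3-FLAG fold enrichment of 7.18. The sixth by this order, chr3:21346637-21347371, lay on U2.2, and U4atac, a component of the minor spliceosome, stood eighth. Because fold enrichment and q chose the members, these values are a description.

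Plant snRNA genes carry an upstream sequence element ahead of a TATA box. It was taken from the genome as the run of 10 bases found within 150 bp upstream of the most annotated snRNA genes, TCCCACATCG, which preceded 29 of the 82. Both strands were searched for it, after the genes under the strongest regions had been seen. All of the 6 strongest members held it, as did 11 of the strongest 20 and 15 of the strongest 50, but only 18 of all 983, or 1.83%. The share was 3.82% in the regions with PIAL2 or MORC6 (34 regions) and 1.21% in all AIPP3-FLAG replicate 1 intervals. Of the strongest regions with PIAL2 or MORC6, 3 of 6, 12 of 20 and 21 of 50 held it. A concentration in the strongest regions was therefore common to both kinds of region. The genome held 320 copies of the element, of which 20 lay in member regions and 66 in any AIPP3-FLAG replicate 1 interval, so most copies had no AIPP3 interval on them. The element and its TATA are shown in capitals for 7 windows in the 6 strongest regions, each read 5′ to 3′ on the strand of the element, with 10 bases before it. Each window is labelled by a gene in its region. For the U2.2 window and the 2 lncRNA windows, no snRNA or snoRNA gene start was found within 150 bp past the element on its strand. Sequences here and below were read from RefSeq's TAIR10.1 assembly, whose nuclear chromosomes have the same lengths as TAIR10.
U1.9, chr5:9494606-9494675, minus strand: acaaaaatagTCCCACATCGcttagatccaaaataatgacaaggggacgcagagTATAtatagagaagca
U4.8, chr5:9494246-9494315, minus strand: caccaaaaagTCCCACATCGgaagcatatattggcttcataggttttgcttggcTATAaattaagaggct
U4.6, chr1:4007040-4007109, minus strand: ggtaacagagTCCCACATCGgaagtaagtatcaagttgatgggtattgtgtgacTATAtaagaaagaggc
no gene annotated, chr5:17474934-17475003, plus strand: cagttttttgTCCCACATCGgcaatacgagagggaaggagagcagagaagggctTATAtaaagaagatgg
AT5G07325, a lncRNA gene, chr5:19886111-19886180, minus strand: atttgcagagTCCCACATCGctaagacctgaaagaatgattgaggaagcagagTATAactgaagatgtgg
AT5G09065, a lncRNA gene, chr5:25066477-25066546, plus strand: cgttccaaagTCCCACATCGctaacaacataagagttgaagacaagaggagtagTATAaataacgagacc
U2.2, chr3:21346654-21346723, plus strand: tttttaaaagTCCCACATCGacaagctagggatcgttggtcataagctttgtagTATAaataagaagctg

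In these windows the TATA began 33 or 34 bases past the element. Over the 20 copies in member regions, 19 had TATA within 15 to 45 bases, 9 of them after 34 bases and 6 after 33. For 17 of the 20 copies the AIPP3 summit lay past the element in the direction of the TATA, and over all 20 the distance between element and summit ran from 65 to 268 bp with a median of 190.0 bp. The median fold enrichment of the 18 regions with the element was 5.57 for AIPP3-FLAG replicate 1 and 6.29 for PHD3-FLAG. In members with neither the element nor a small RNA gene the medians were 2.79 and 2.48. In the regions with PIAL2 or MORC6 they were 4.64 and 8.02 with the element, and 3.11 and 2.68 with neither. Small nucleolar RNA genes, whose products guide the modification of ribosomal RNA, were also under members: 66 of 287 annotated snoRNA genes (23%) and 9 of 82 snRNA genes (11%). The regions with PIAL2 or MORC6 covered still more of them, 46.3% and 28%. In all, 38 members (3.87%) lay on a snoRNA or snRNA gene, 14 of them among the strongest 50.

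**Figure D1:**
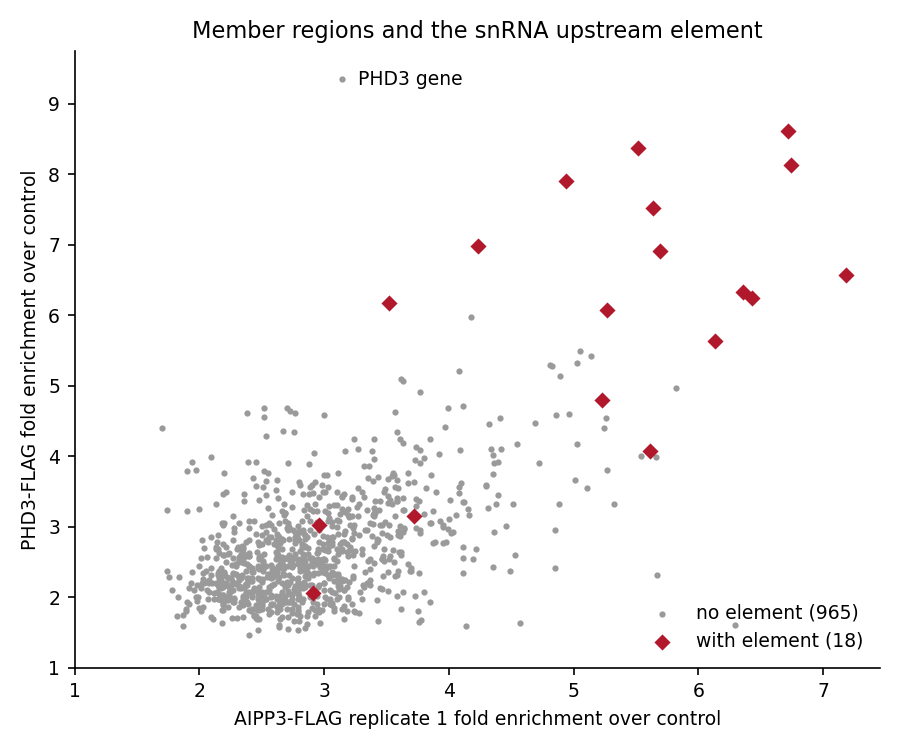
Fold enrichment over control of PHD3-FLAG against AIPP3-FLAG replicate 1 for the 983 member regions, as given by the peak caller; red diamonds are the 18 regions with the snRNA element and grey points the rest. Of the 18, 15 are among the strongest 50 members by AIPP3-FLAG −log10 q, and the single point above 9 on the PHD3 axis is the region at the *PHD3* gene itself.

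The highest PHD3-FLAG value of all members was at *PHD3* itself (AT3G02890). The interval chr3:640177-640522 at the start of that gene had a PHD3-FLAG fold enrichment of 9.36, against 3.14 and 2.25 for the AIPP3-FLAG replicates. The PHD3-FLAG plants carried a transgene with this gene and its promoter, and the AIPP3-FLAG plants did not. The part of the transgene in the PHD3-FLAG value was not tested. At the weak end of the list, the member with the lowest AIPP3-FLAG −log10 q was chr5:426330-426587, with 2.02, just above the limit of 2 that a q of 0.01 sets. The next was chr2:6919897-6920171, in the leucine-rich repeat gene AT2G15880, with 2.14.

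Members were narrower and weaker than the regions with PIAL2 or MORC6. Their median width was 543 bp against 955 bp, and the median AIPP3-FLAG fold enrichment was 2.81 against 3.24. Of the members, 35.3% had more than 1 summit, against 60.7%. Together they covered 687154 bp, or 0.577% of the nuclear genome, and spread over the chromosomes at 7.53 to 9.1 regions per Mb. The nearest PIAL2-Myc or MORC6-Myc interval was a median of 2733 bp away, although 253 members (25.7%) had such an interval within 1000 bp and 38 within 100 bp.

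Member regions sat at gene starts and, by the rule as used, more often than the regions with PIAL2 or MORC6 at gene ends. A summit was placed at a gene start if it lay from 250 bp before to 500 bp after the annotated start of a protein-coding gene, and at a gene end if it lay within 250 bp of the annotated end. Of the 983 summits, 456 (46.4%) were at a gene start alone and 341 (34.7%) at a gene end alone. In the regions with PIAL2 or MORC6 these shares were 60% and 12.6%, and the same zones made up 14.6% and 8.11% of the bases of the nuclear genome. Only 40 members (4.07%) had the summit outside these zones and outside protein-coding genes, against 112 of the compared regions (12.6%). Regions near each other share signal and are not independent replicates, so these shares are given side by side without a test.

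**Figure D2:**
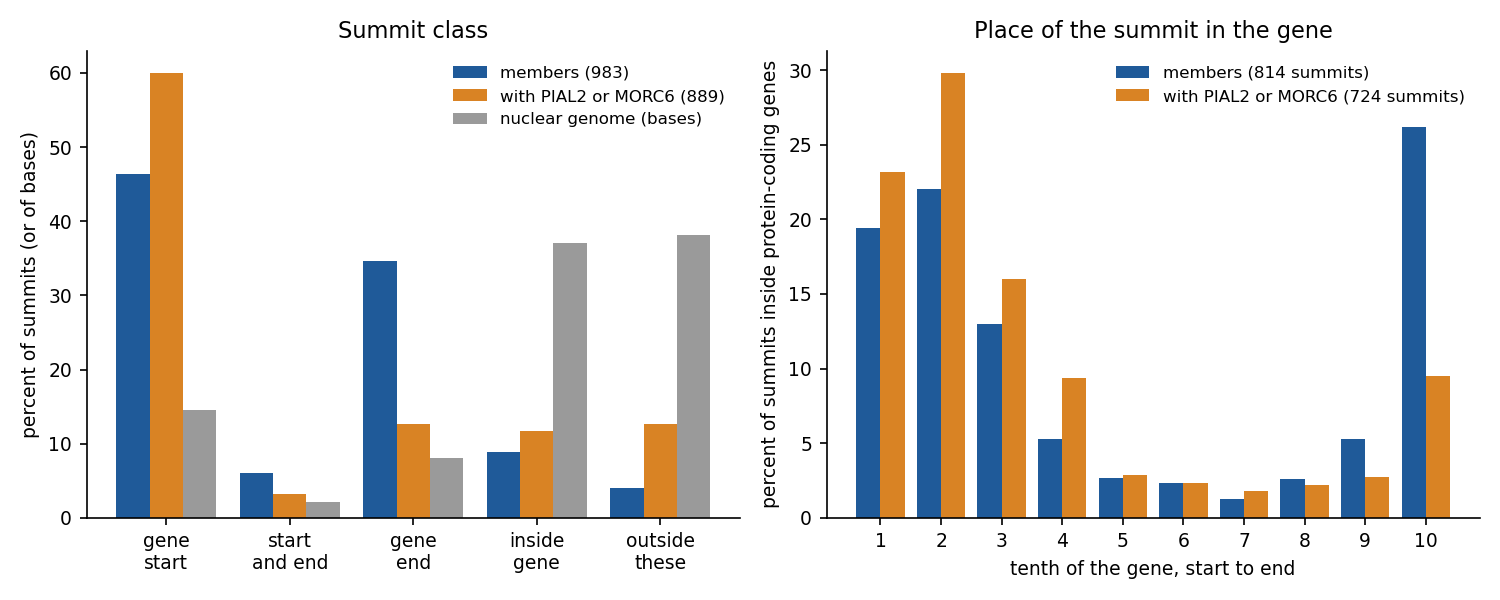
Left, percent of AIPP3-FLAG summits in each class for members (blue) and for the regions with PIAL2 or MORC6 (orange), with the percent of nuclear bases in the class (grey); right, percent of the summits inside protein-coding genes by place along the gene, in 10 parts of equal length. The last of the 10 parts held 26.2% of member summits and 9.53% of the others, while the first 3 parts held 54.4% and 69.1%.

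The summits at gene starts lay inside the gene, at a median of 254 bp past the start, and those at gene ends at a median of 11 bp past the end. Of the members at a gene end, 173 (50.7%) had ends of genes on both strands within 500 bp, that is, they lay between genes that point at each other. This share was 32.1% of the 112 compared regions at gene ends. The gene-end members were also the weaker ones, with a median PHD3-FLAG fold enrichment of 2.36 against 2.69 at gene starts. When only AIPP3-FLAG intervals with a −log10 q of at least 5 were kept, the share at gene ends was 25.1%, and when PHD3-Myc replaced PHD3-FLAG in the rule it was 15.3% of 236 regions. The gene-end share was thus lower both at the stricter limit and with PHD3-Myc. Of the 229 members that overlapped PHD3-Myc, 35 were at a gene end alone, beside 41 of the 417 compared regions that did. The gap between the 2 kinds of region was smaller there than over all regions. The share of the compared regions at the stricter limit is not given here. The PHD3-Myc list had 853 intervals and the PHD3-FLAG list 5298, so the library and the strength of the peaks cannot be told apart.

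GAGA repeats were less frequent in members than in the regions with PIAL2 or MORC6, 14.5% beside 21.1% of 300 bp windows, and within members they were found mainly at gene starts. GAGAGAGA, the kind of repeat that BASIC PENTACYSTEINE factors bind, was found on either strand in 24.3% of 300 bp windows around the 456 gene-start summits, in 15.5% of windows at the same distance from the start of all 27444 protein-coding genes, and in 8.38% of promoters (250 bp before to 50 bp after the start). The telobox AAACCCTA, which marks genes of the translation machinery, was in 11.6% of these windows and in 10.6% of the windows at the same distance, and the site II element GGCCCA was in 2.19% and 3.29%. At gene ends the GAGA repeat was in 4.4% of member windows and 3.68% of all genes. A match is only a run of letters, and the shares were not tested. The 3 gene-start summits below show the setting of the GAGA repeat (capitals, either strand), each 121 bases around the summit on the strand of the gene.
*CAD9*, chr4:18291312-18291432, plus strand: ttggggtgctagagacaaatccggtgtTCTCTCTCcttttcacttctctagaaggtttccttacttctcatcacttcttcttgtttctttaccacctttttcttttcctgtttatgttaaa
*GDU3*, chr5:23366553-23366673, minus strand: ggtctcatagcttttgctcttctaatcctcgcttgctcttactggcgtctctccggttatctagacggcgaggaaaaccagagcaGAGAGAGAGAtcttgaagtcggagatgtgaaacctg
AT5G22020, chr5:7289173-7289293, minus strand: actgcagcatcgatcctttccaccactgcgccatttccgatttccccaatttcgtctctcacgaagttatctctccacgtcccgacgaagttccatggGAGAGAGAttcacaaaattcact
They are the strongest gene-start members with the repeat within 60 bases of the summit and no untranslated exon in the window.

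Other peak lists of the series were set against the members. PHD3-Myc, a second PHD3 library with the other tag and 853 intervals, overlapped 229 members (23.3%) and 417 of the regions with PIAL2 or MORC6 (46.9%). It overlapped 16 of the 18 members with the snRNA element, and also 30 of the 35 without it among the strongest 50, while it overlapped 20.4% of the members with neither element nor small RNA gene. Of the compared regions it overlapped 97.1% of those with the element and 41.4% of those with neither. Among members the share was 32.2% at gene starts and 10.3% at gene ends. PHD1-FLAG replicate 1, a MOM1 complex protein with the same tag as AIPP3, overlapped 106 members (10.8%) against 37.7% of the compared regions. PHD1-FLAG replicate 2 had 27 intervals, too few to compare. Further MORC6-Myc plants, 3 lines in *morc6* and 2 in Col-0, had intervals on 1.12% to 9.16% of the members, and 13% of the members met an interval in at least 1 of these 5 lines, against 81.4% of the compared regions. These lines were not used by the rule, but carry the same tag as the MORC6-Myc libraries that were.

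Member regions overlapped 1283 genes of any kind, among them 1114 of the 27444 protein-coding genes (4.06%), and 85 of the 1283 also lay under a region with PIAL2 or MORC6. The share of a gene family under members differed from list to list. Of 344 genes annotated as coding for a ribosomal protein, 112 (32.6%) were under members and 47 (13.7%) under the compared regions. Of 27 genes with chlorophyll in their product, 9 were under members and 4 under the compared regions, the 9 including the light-harvesting genes *CAB1*, *CAB3*, *LHCA1* and *LHCA4* and the protochlorophyllide oxidoreductase genes *PORA* and *PORB*. Of 115 histone-related genes 20 were under members and 19 under the compared regions, of 8 actin genes 2 (*ACT7* and *ACT8*) and 3, of 30 tubulin genes 3 and 8, and of 111 heat shock genes 6 and 5. Of 9 elongation factor and ubiquitin genes 5 were under members and 4 under the compared regions, the 5 including the 3 neighbouring genes AT1G07920, AT1G07930 and AT1G07940, whose near-identical sequences leave their counts uncertain. Of 28 developmental genes under Polycomb control 3 (*SEP2*, *SEP3* and *SHP1*) lay under members (10.7%) and 2 under the compared regions, and of 11 clock genes 0 and 1 did. These shares stand beside the 4.06% of all protein-coding genes, and no test of a list was made.

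The genes under members were highly expressed in Col-0 seedlings. The median level of the 1105 protein-coding genes with a value was 45.9, 43.6 and 45.8 TPM (a transcript level scaled to the library and corrected for gene length) in the 3 Col-0 libraries, against 6.92, 6.7 and 6.83 for all 26712 protein-coding genes. Of the 1105, 500 (45.2%) were in the top 10% of all genes, and 82 (7.42%) were below 1 TPM, as were 28.9% of all genes. Genes under the regions with PIAL2 or MORC6 had a median of 46.6 TPM, so a high level was common to both kinds of region. Genes with a member summit at the start and those with a summit only at the end had medians of 55 and 48.1 TPM. The highest levels were those of photosynthesis genes: *CAB1*, coding for a chlorophyll-binding protein of photosystem II, had 24749, 25473 and 25833 TPM, followed by *CAB3*, *LHCA1*, *LHCA4* and the photosystem I gene *PSAO*.

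**Figure D3:**
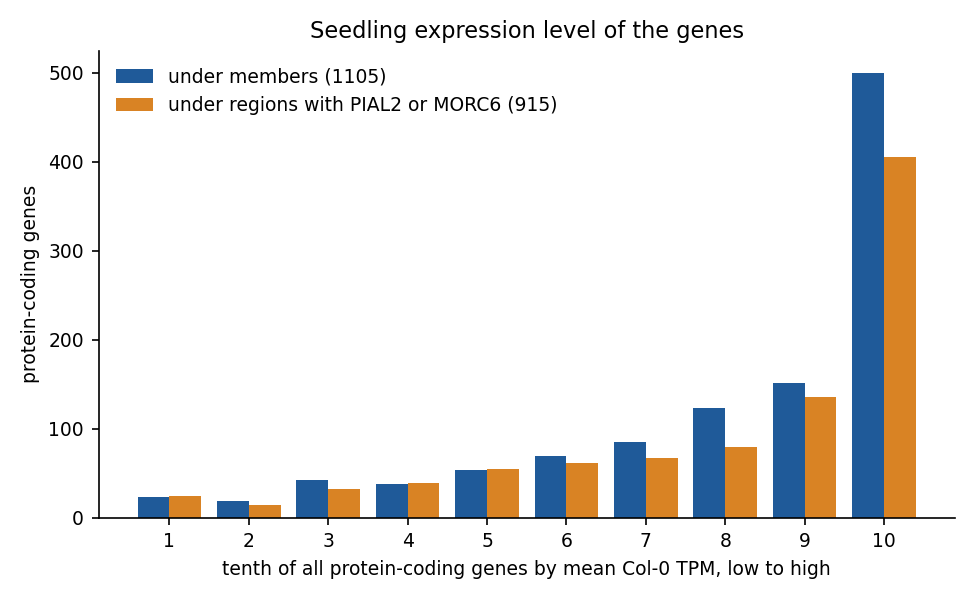
Number of protein-coding genes under members (blue) and under regions with PIAL2 or MORC6 (orange) in 10 classes of all protein-coding genes ranked by mean TPM in the 3 Col-0 libraries. The highest class held 500 member genes and 406 genes under the compared regions, and the lowest 23 and 24.

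RNA-seq of the *aipp3* alleles showed what happened to these genes without AIPP3. AIPP3 itself (AT4G11560), which lay under no member, was at 20.9, 21.6 and 19.6 TPM in Col-0, at 6.1, 6.15 and 5.95 TPM in *aipp3-1* and at 2.22, 2.18 and 2.8 TPM in *aipp3-2*. Its log2 fold change was −1.80 ± 0.08 (SE) in *aipp3-1* and −3.18 ± 0.10 in *aipp3-2*, so both alleles matched their labels and transcript remained in both. Summed expected counts were 20808296 to 25378880 in Col-0 and 16733615 to 19716972 in the *aipp3* libraries. Leaf markers (*RBCS1A*, 2 *LHCB* genes and *RCA*) summed to 40197 to 47511 TPM in all 9 libraries, and the 3 root markers to 1227 to 1936 TPM. The 5 flower organ genes, *SEP3* among them, summed to 7.39 to 8.51 TPM in Col-0, to 38.1 to 59.2 in *aipp3-1* and to 35 to 59.9 in *aipp3-2*. Of the 11 clock genes, 3 were higher (*CCA1*, *LHY* and *PRR9*) and 2 lower (*TOC1* and *PCL1*) in *aipp3-1*, and 4 and 2 in *aipp3-2*, at an adjusted p under 0.05 in edgeR's test. *PRR9* was at 2.56 to 6.25 TPM in Col-0 and at 14.1 to 25.9 in the 6 mutant libraries, and its log2 fold change in *morc6-3*, 2.15, was close to that in *aipp3-1*, 2.24. The part of floral tissue and of time of day in the results that follow was not tested, and in bulk seedlings more cells of a type and more RNA per cell cannot be told apart.

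Most genes under members did not pass the test in either allele. Genes were called at an adjusted p under 0.05 in edgeR's quasi-likelihood test with Benjamini-Hochberg adjustment over all features, and a log2 fold change of at least 1. In *aipp3-1*, 22 member genes were higher and 10 lower of 1051 tested, 2.09% and 0.951%, beside 1.78% and 1.1% of all 20044 features. In *aipp3-2*, 32 were higher and 14 lower of 1052 tested, 3.04% and 1.33%, beside 2.68% and 1.53% of 20126 features. Without the limit on fold change, 82 rose and 57 fell in *aipp3-1* (7.8% and 5.42%, beside 5.19% and 5.19%) and 110 rose and 130 fell in *aipp3-2* (10.5% and 12.4%, beside 8.57% and 9.71%). The median log2 fold change of the member genes was 0.027 in *aipp3-1* and 0.007 in *aipp3-2*, beside 0.009 and 0.002 over all features. These shares were near the background, and the 2 alleles shared the Col-0 libraries.

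Of the 1283 member genes, 1163 had a row in the RNA-seq tables, and 112 of these in *aipp3-1* and 111 in *aipp3-2* fell to the filter on low counts. None of the 66 snoRNA and 9 snRNA genes was tested. Protein-coding neighbours under the 2 strongest regions were, and did not pass: AT5G26990 had a log2 fold change of −0.08 in *aipp3-1* and −0.09 in *aipp3-2*, and *SRS* had 0.06 and −0.05. Of the tested genes, 21 in *aipp3-1* and 22 in *aipp3-2* passed the filter only through the mutant libraries and could only be seen to rise, and 7 and 10 of these were among those called higher.

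The background changed with the level of a gene. For genes at 1 to 10 TPM in Col-0, 9 of 153 member genes were called higher in *aipp3-1* (5.88%, beside 2.13% of all annotated genes at that level) and 14 of 154 in *aipp3-2* (9.09%, beside 3.01%). At 10 to 100 TPM the shares were 1.41% beside 0.482% in *aipp3-1* and 1.62% beside 0.533% in *aipp3-2*. Above 100 TPM no member gene was called higher in either allele by this rule, and without the fold limit 8 and 10 of 385 were. Lower calls above 100 TPM were 3 of 385 member genes in *aipp3-1* (0.779%, beside 2.94%) and 6 of 385 in *aipp3-2* (1.56%, beside 4.37%). Like shares were found in *phd1-2*, *phd1-4* and *morc6-3*, while *pial1/2* had too few calls to compare. At 1 to 10 TPM, 6% of member genes beside 1.7% of all genes were called higher in *phd1-2*, and 4.7% beside 1.58% in *phd1-4*. In *morc6-3* the shares were 5.23% beside 1.24%, and in *pial1/2* 0.667% (1 of 150 member genes) beside 0.121%. Lower calls above 100 TPM were 2.34% beside 4.83% in *phd1-2*, 2.86% beside 5.55% in *phd1-4* and 1.82% beside 4.9% in *morc6-3*. The pattern by level was therefore not limited to the *aipp3* alleles, and its counts were small. All of these comparisons shared the same Col-0 libraries and are not independent. Of genes with a member summit at the start, 16 of 494 were called higher in *aipp3-1* and 24 of 493 in *aipp3-2*, beside 2 of 399 and 5 of 402 of those with a summit only at the end. A like gap was found in *phd1-2* (12 of 488 and 1 of 397), *phd1-4* (13 of 484 and 0 of 397) and *morc6-3* (12 of 489 and 0 of 397). In *pial1/2*, 0 of 486 and 1 of 397 were called higher, too few to compare. These subsets were set beside each other without a test.

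**Figure D4:**
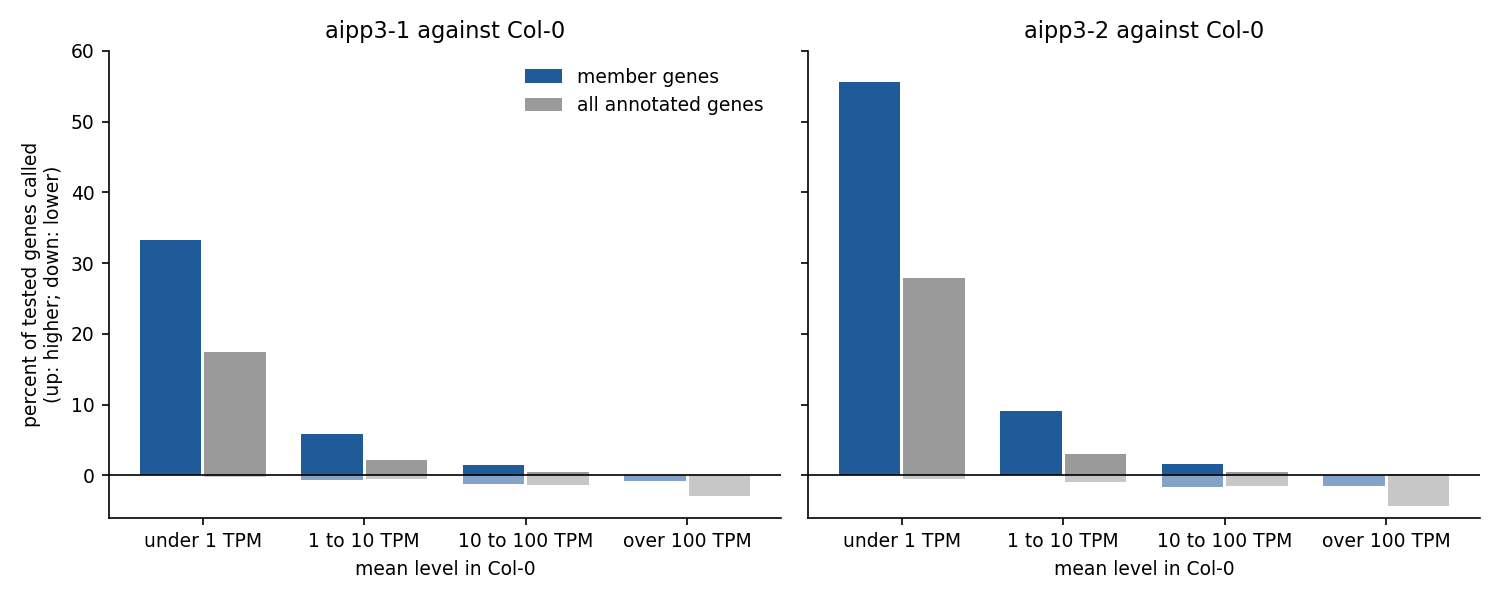
Percent of tested genes called higher (upward bars) and lower (downward, paler bars) in each *aipp3* allele against Col-0, by mean Col-0 level, for member genes (blue) and all annotated genes (grey). In the class under 1 TPM only 18 member genes were tested, 6 called higher in *aipp3-1* (33.3%, beside 17.5% of all annotated genes) and 10 in *aipp3-2* (55.6%, beside 27.9%), and most of the 18 passed the filter only through the mutant libraries.

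In all 19 member genes were called higher at 2-fold in both alleles and 7 lower, 1.81% and 0.669% of the 1047 tested in both, beside 1.44% and 0.883% of all 19926 features tested in both. These shares too were near the background. The 19 were 86.4% of those called higher in *aipp3-1* and 59.4% of those in *aipp3-2*, and 15 of them had the summit at the gene start. Since the same Col-0 libraries enter both comparisons, each allele was also set against *morc6-3*, a fit added after the data were seen that holds no Col-0 library. Against *morc6-3*, 4 member genes were called higher in *aipp3-1* (0.381%, beside 0.249% of features) and 10 in *aipp3-2* (0.951%, beside 0.76%), and none was lower in either by edgeR's test (0.234% and 0.348% of features were). At an unadjusted p under 0.05, 0 and 1 member genes were lower by 2-fold. Only *PORA*, AT5G47600, AT3G53650 and *SEP3* were called higher in both alleles against Col-0 and against *morc6-3*.

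*PORA* codes for a protochlorophyllide oxidoreductase, a chlorophyll synthesis enzyme best known from seedlings in the dark. It was at 3.2, 4.06 and 3.43 TPM in Col-0, at 98.6, 145.3 and 180.8 TPM in *aipp3-1* and at 167.6, 123.9 and 138.0 TPM in *aipp3-2*. Every *aipp3* library stood far above every Col-0 library, and the 12 libraries of the other mutants were at 1.03 to 4.22 TPM. The log2 fold change was 5.29 ± 0.28 in *aipp3-1* and 5.25 ± 0.14 in *aipp3-2* (adjusted p = 0.000216 and 2.1e-06, edgeR). The member region chr5:21992595-21992823 covered the gene start with an AIPP3-FLAG fold enrichment of 2.59. Against *morc6-3* the difference was as large, 6.08 and 6.04 on the log2 scale.

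AT5G47600, a gene for an HSP20-like chaperone, was at 2.0, 2.6 and 2.67 TPM in Col-0, at 40.8, 32.8 and 33.5 TPM in *aipp3-1* and at 36.2, 31.7 and 49.0 TPM in *aipp3-2*. Its log2 fold change was 3.85 ± 0.15 and 3.91 ± 0.19. AT3G53650, annotated as a histone gene, was at 11.4, 15.3 and 12.5 TPM in Col-0, at 96.1, 77.3 and 77.3 TPM in *aipp3-1* and at 79.1, 80.5 and 90.1 TPM in *aipp3-2*, with a log2 fold change of 2.66 ± 0.14 and 2.59 ± 0.13. Both had the summit at the gene start, and in both the *aipp3* libraries stood clear of all others, including *pial1/2*, *morc6-3* and the *phd1* alleles. Its relative AT3G09480, also a histone gene under a member, went from 4.14, 3.38 and 4.49 TPM to 9.91 to 13.3 TPM in the *aipp3* libraries. That rise, 1.47 and 1.45 on the log2 scale, passed the test against Col-0 but not against *morc6-3* (adjusted p = 0.0953 and 0.0756, edgeR). Histone genes are near copies of each other, so reads may be shared among them. Of the 20 histone-related genes under members, 5 rose in each allele without the fold limit, none fell in *aipp3-1* and 1 fell in *aipp3-2*. Of the 96 tested in the whole list, 7 rose and 1 fell in *aipp3-1*, and 8 rose and 3 fell in *aipp3-2*. Over all features 5.19% rose in *aipp3-1* and 8.57% in *aipp3-2*.

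**Figure D5:**
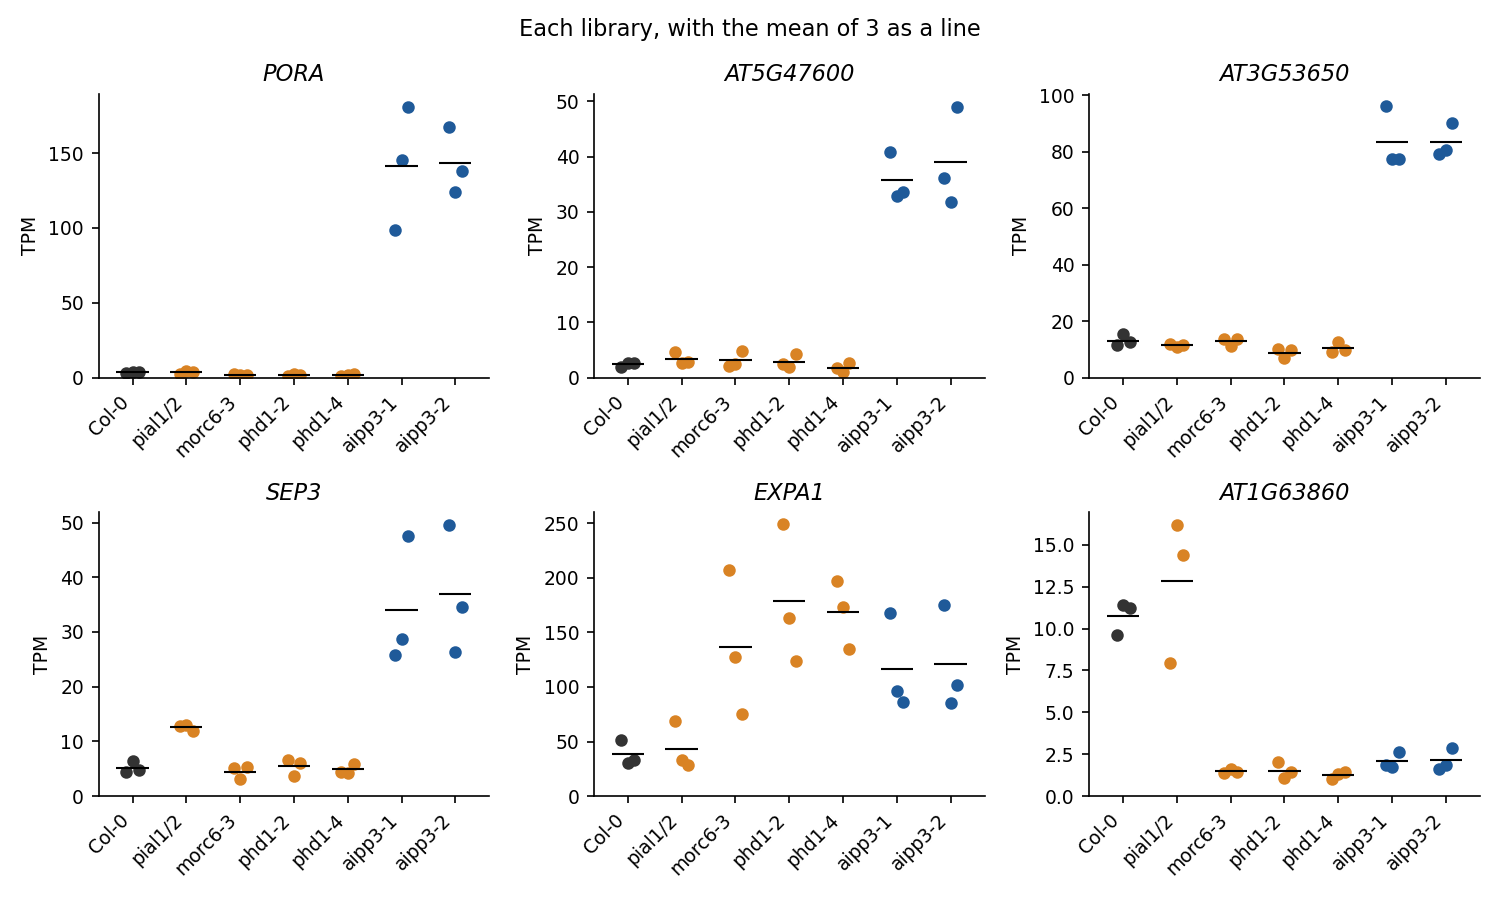
TPM of 6 member genes in each of the 3 libraries of Col-0 (black), of 4 other mutants (orange) and of the *aipp3* alleles (blue), with the mean as a line. *PORA*, AT5G47600 and AT3G53650 are high in the *aipp3* libraries alone, *SEP3* is highest there with *pial1/2* between at 11.9 to 13 TPM, and *EXPA1* is also high and AT1G63860 also low in *morc6-3* and the *phd1* alleles.

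Among developmental genes under Polycomb control, *SEP3* and *SEP2*, MADS-box genes of floral organ identity, lay under members and rose. *SEP3* was at 4.39, 6.42 and 4.86 TPM in Col-0, at 25.7, 28.7 and 47.5 TPM in *aipp3-1* and at 49.6, 26.4 and 34.6 TPM in *aipp3-2*, with a log2 fold change of 2.72 ± 0.28 and 2.75 ± 0.22. It was also 1.31 on the log2 scale in *pial1/2*, so the difference from *pial1/2* was smaller, 1.39 and 1.43. *SEP2* was at 0, 0.21 and 0.1 TPM in Col-0 and at 0.39 to 2.38 TPM in the mutants. Both regions were at the gene end, and *SEP3* also lay under a region with PIAL2 or MORC6. *SHP1*, the remaining member of this list, was at 0.2 to 0.46 TPM in Col-0 and at 0.41 to 0.89 TPM in the mutants and was not tested. Over all features, 5.19% rose and 5.19% fell in *aipp3-1*, and 8.57% and 9.71% in *aipp3-2* (adjusted p under 0.05, edgeR). By the same rule, of the 18 genes of the whole list that were tested, 8 rose and none fell in *aipp3-1* and 11 rose and none fell in *aipp3-2*. Genes without a member region were among them: the florigen gene *FT* was at 0.06 to 0.67 TPM in Col-0 and at 1.96 to 4.48 TPM in *aipp3-1*, and *AP3* was at 0 to 0.15 and 0.57 to 3.34 TPM. *SEP1*, under a region with PIAL2 or MORC6, was at 0.29 to 0.93 and 1.09 to 4.03 TPM. A rise of floral genes was thus not limited to those under members. *SEP2*, *AP3* and *FT* were near 0 in Col-0 and entered the test of none of the other mutants. They could only be seen to rise, so the absence of falls in the list says little.

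Several member genes that were near 0 in Col-0 varied widely among the *aipp3-1* libraries. AT5G22430 was at 1.05, 6.17 and 6.47 TPM in *aipp3-1* replicates 1, 2 and 3, and AT2G20870, a cell wall protein gene, was at 3.43, 15.8 and 13.0 TPM. Both were lowest in replicate 1, as were *SEP2* and *AP3*, the latter with 0.57, 3.34 and 2.44 TPM. The cellulose synthase-like gene *CSLA01* was at 0.81, 0.07 and 1.03 TPM and was lowest in replicate 2. In Col-0, AT5G22430 was at most at 0.13 TPM, AT2G20870 at 0.83 TPM and *CSLA01* at 0.03 TPM, and since a fitted fold change at such levels depends on the prior count, none is given. All 3 passed the filter on low counts only through the mutant libraries, so that they could only be seen to rise. They passed the test in both alleles, with adjusted p from 0.00132 to 0.0373 (edgeR), and in *aipp3-1* all 3 lost it without Col-0 replicate 2 or 3 (adjusted p from 0.0735 to 0.147, edgeR), *CSLA01* also without Col-0 replicate 1 (0.0907) and AT2G20870 without *aipp3-1* replicate 2 (0.0516). The thionin gene *THI2.1* was at 0.09, 1.43 and 5.83 TPM in *aipp3-1* and did not enter its test, and at 3.51, 1.88 and 2.54 TPM in *aipp3-2*, where it was called. *AGO9*, coding for an Argonaute that is loaded with small interfering RNAs, was at 0.08, 0.09 and 0.1 TPM in Col-0 and at 0.54 to 1.18 TPM in the *aipp3* libraries. Its expected counts in Col-0 were 5, 5 and 7, below the filter, so it too could only be seen to rise.

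A second set of rises was shared with other mutants. *EXPA1*, an expansin gene, was at 51.5, 30.0 and 32.8 TPM in Col-0, at 86.0 to 167.9 TPM in *aipp3-1* and at 85.7 to 174.8 TPM in *aipp3-2*. It was at 75.1 to 207.4 TPM in *morc6-3*, and its difference between the *aipp3* alleles and *morc6-3* was −0.30 and −0.28 on the log2 scale. The ascorbate synthesis gene *VTC2*, the kinase gene *CIPK5*, the SAUR-like gene AT4G38860, *CYP96A12*, *ABCG18* and AT1G78170 did likewise. These 7 of the 19 genes were called higher at 2-fold in *phd1-2*, *phd1-4* and *morc6-3* as well. The like share among all features called higher in both *aipp3* alleles was not counted, so the sharing is not shown to be particular to members.

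The falls were nearly all of this shared kind. AT1G63860, coding for a TIR-NBS-LRR disease resistance protein, was at 9.62, 11.4 and 11.2 TPM in Col-0, at 1.85, 1.71 and 2.65 TPM in *aipp3-1* and at 1.62, 1.86 and 2.9 TPM in *aipp3-2*. Its log2 fold change was −2.39 ± 0.18 and −2.41 ± 0.18, beside −2.84 in *phd1-2* and −2.83 in *morc6-3*, and in *pial1/2* it was 0.29. The member region at its end, chr1:23701008-23701620, held the snRNA element 70 bp ahead of the snoRNA gene AT1G08643. Genes of this family lie in clusters of near copies, so its counts are uncertain. *PAR1*, a shade response regulator, was at 41.3, 37.1 and 55.2 TPM in Col-0 and at 13.7 to 24.0 TPM in the *aipp3* libraries. The O-fucosyltransferase gene AT2G44500 went from 38.3 to 55.5 TPM down to 11.8 to 26.7 TPM, and the small peptide gene *RTFL6* from 12.9 to 14.3 TPM down to 2.29 to 6.15 TPM. *XTH16*, *DYL1* and AT2G15880 make up the 7 called lower in both alleles. None of the 7 was called lower against *morc6-3*, and 5 of them were called lower in *phd1-2*, *phd1-4* and *morc6-3*. For falls too, the like share among all features was not counted.

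The touch genes *TCH4* and *TCH3*, known to respond quickly to handling, had the largest falls of the called member genes in *aipp3-2* after AT1G63860. *TCH4* was at 1207, 1978 and 1988 TPM in Col-0, at 81.9, 444.0 and 593.9 TPM in *aipp3-1* and at 70.5, 449.6 and 504.4 TPM in *aipp3-2*. It was called in *aipp3-2* (−2.40 ± 0.62, adjusted p = 0.0332, edgeR) and not in *aipp3-1* (−2.21 ± 0.63, adjusted p = 0.0666). In *morc6-3* it was at 32.9, 279.8 and 386.6 TPM, and in the *phd1* alleles at 33.3 to 362.8 TPM. In *pial1/2* it was near the Col-0 level, at 1285, 2138 and 2502 TPM. Replicate 1 was the lowest library of each of these groups, Col-0 included.

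The families differed in the test. Over all features, 5.19% were higher and 5.19% lower in *aipp3-1*, and 8.57% and 9.71% in *aipp3-2* (adjusted p under 0.05, edgeR). Of 109 ribosomal protein genes under members that were tested, none was called in either direction in either allele at an adjusted p under 0.05 by edgeR, and the median log2 fold change was 0.06 and 0.07. At an unadjusted p under 0.05, 3 were higher and 2 lower in *aipp3-1* and 11 and 2 in *aipp3-2*, and DESeq2 called 0 and 1 in *aipp3-1* and 1 and 2 in *aipp3-2*. Of the 9 chlorophyll genes under members, 1 (*PORA*) was higher and none lower in *aipp3-1*, and 3 were higher and 2 lower in *aipp3-2*. Of the 26 tested in the whole list, 3 were higher and none lower in *aipp3-1*, and 6 and 3 in *aipp3-2*. The chlorophyllase gene *CLH1* and the early light-induced gene *ELIP1* were higher in *aipp3-2*, 1.67 and 1.31 on the log2 scale, and *PORB* was lower, −0.66. Of 3 tubulin genes, *TUA5* and *TUB8* were lower in *aipp3-2* (−0.43 and −0.24) and none passed in *aipp3-1*. The light-harvesting genes *CAB1*, *CAB3* and *LHCA4* and the photosystem I gene *PSAO* did not pass the test in either allele. *LHCA1* passed it in *aipp3-2* alone (−0.38 ± 0.11, adjusted p = 0.0497, edgeR). *ACT7* and *ACT8* had log2 fold changes from −0.06 to 0.05. *UBQ4* rose by a little in both alleles, 0.42 ± 0.08 and 0.29 ± 0.08. *PHD3*, under its own region, was at 4.83 to 5.32 TPM in Col-0 and at 5.81 to 6.86 TPM in the *aipp3* libraries (log2 fold change 0.28 and 0.20, adjusted p = 0.112 and 0.114, edgeR).

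The other mutants put the *aipp3* counts in place. In *phd1-2*, 16 member genes were called higher and 19 lower (background 1.13% and 1.97% of features, members 1.54% and 1.83%). In *phd1-4* the counts were 15 and 25, beside 1.14% and 2.57% of features, and in *morc6-3* they were 13 and 15, beside 1.03% and 2.33%. In *pial1/2*, whose libraries deviated together with the Col-0 libraries of the same number, *SEP3* alone was called higher and none lower (0 also at an unadjusted p under 0.05 and by DESeq2), beside 0.474% and 0.0101% of features, and the counts were the same with the replicate block. Set against *pial1/2* in place of Col-0, *aipp3-1* had 17 member genes higher and 9 lower (1.33% and 1.81% of features), and *aipp3-2* had 30 and 16 (2.24% and 2.18%). Against *phd1-2* the counts were 5 and 0 in *aipp3-1* (0.225% and 0.0399% of features; 1 lower at an unadjusted p under 0.05) and 8 and 3 in *aipp3-2* (0.946% and 0.174%). Against *phd1-4* they were 5 and 0 in *aipp3-1* (0.315% and 0.0601%; 1 lower at an unadjusted p under 0.05) and 14 and 1 in *aipp3-2* (1.31% and 0.209%).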

How the data were processed

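ChIP-seq peak lists were deposited by the authors, who aligned reads to TAIR10 with Bowtie2 2.4.2 and called peaks with MACS2 2.1.2 at a q of 0.01. Their fold enrichment over the control and −log10 q are printed as the authors deposited them, and the lists carry no read depth. The reads per ChIP library that the study states were not used here. The methods say that peaks common in Col-0 FLAG ChIP were removed; whether this was done in the lists used here is not stated. The deposited expected counts and TPM per gene came from Bowtie2 and RSEM by the authors. Expected counts were rounded and tested with edgeR 4.0.16 (quasi-likelihood, TMM, at least 1 CPM in 2 of 6 libraries) in R 4.3.3, each mutant with Col-0 only. DESeq2 1.42.0, RLE factors, no filter, a replicate block and each library left out were alternatives. Summed expected counts were 13164594 to 32761938 per library. Gene models and sequences came from RefSeq TAIR10.1.

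Replicate numbers are shared by Col-0 and the mutants. Deviations from group means correlated at 0.375, 0.155 and 0.279 between same-numbered *pial1/2* and Col-0 libraries. The *pial1/2* values printed still come from the fit without a replicate block, and the block was run as an alternative. Named genes were AIPP3, the 6 largest changes in each direction and allele with an adjusted p under 0.05 and groups that do not overlap, the 5 highest Col-0 levels, listed genes under members, and genes under the named regions (the 5 highest by AIPP3-FLAG −log10 q, the 3 highest by PHD3-FLAG, and those nearest the limit). Other genes named were chosen after their values were seen. The overlap and testing code was tested on simulated data. The members, lists and tests were chosen with earlier results of these data known.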

Additional observations from a re-analysis of the deposited data

How the results depend on the processing

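The direction of every result followed was kept under the alternatives run. Limits came first from the peak lists. Asking for an overlap of at least 50% of the interval put PHD3-Myc on 15.7% of members, PHD1-FLAG replicate 1 on 2.9%, a MORC6-Myc line on 6.02% and the summit at a gene end in 29.8%. With a −log10 q of at least 5, PHD3-Myc lay on 32.3%, and 57.3% were at gene starts and 25.1% at gene ends. With PHD3-Myc in place of PHD3-FLAG there were 236 members, 20.8% with PHD1-FLAG, 22.5% with a MORC6-Myc line, 64.8% at gene starts and 15.3% at gene ends. Leaving out each ChIP replicate in turn gave 985 to 1844 members, the highest without AIPP3-FLAG replicate 2. The shares then ran from 13.8% to 29.9% for PHD3-Myc, 7.48% to 15.0% for PHD1-FLAG, 10.6% to 23.1% for the MORC6-Myc lines, 44.4% to 52.2% for gene starts and 27.6% to 34.7% for gene ends. In windows of 200 bp the telobox share over all members was 3.76% against 7.22% in 300 bp, and the GAGA share 8.75% against 14.5%. Around interval centres the GAGA share was 9.66%. With the other Col-0 set of the series the median level was 50.9 TPM. The cause of these shifts was not tested.

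Counting only genes that start in the region left 6 higher and 1 lower in *aipp3-1*, 9 and 0 in *aipp3-2*, 1 and 2 in *phd1-2*, 1 and 4 in *phd1-4*, 0 higher in *pial1/2*, and 1 and 1 in *morc6-3*. There were 291 genes that start in a member region, tested or not, and the shares over all features are those given above. A summit in the gene or just upstream left 0 higher in *pial1/2*. Without each library in turn, 6 to 24 genes were higher and 2 to 17 lower in *aipp3-1*, 20 to 34 and 6 to 18 in *aipp3-2*, 9 to 28 and 13 to 31 in *phd1-2*, 10 to 25 and 19 to 37 in *phd1-4*, 0 to 1 and 0 in *pial1/2*, and 9 to 18 and 8 to 22 in *morc6-3*. Against other mutants in place of Col-0, chosen after seeing the data, *aipp3-1* had 4 higher and 0 lower with *morc6-3*, 5 and 0 with *phd1-2* and 5 and 0 with *phd1-4*. *aipp3-2* had 10 and 0, 8 and 3, and 14 and 1. The replicate block gave 24 higher and 12 lower in *aipp3-1* and 30 and 14 in *aipp3-2*, and moved no count by over 1.5 times. Of the single genes, 65 comparisons with Col-0 were followed, and of their alternatives 587 kept the call, 43 lost it and 10 gained it. Peak lists were not scaled to read depth here, and a missing PIAL2 or MORC6 interval does not show that the protein was absent.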

Other observations

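Transfer RNA and microRNA genes were rarely under members: 6 of 625 tRNA genes (0.96%) and 7 of 326 miRNA genes (2.15%), beside 0 and 27 under the regions with PIAL2 or MORC6. Of the 48 lncRNA genes under members, AT5G07325, AT5G09065 and AT5G09070 lay on regions with the snRNA element.

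The spacing of element and TATA differed from that of the genome as a whole. TATA began 32 to 35 bases past 16 of the 20 copies in member regions and past 104 of the 320 copies in the genome. It began 23 to 25 bases past 0 of the 20 and 68 of the 320. This was seen after the element had been chosen and was not tested.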
